A study of Homo sapiens with 6 samples.

Results

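Aminoacyl-tRNA synthetases, the enzymes that load each tRNA with its amino acid, were examined in LNCaP cells. The cells had received siRNA against the translationally controlled tumor protein (TCTP, gene TPT1) or a control siRNA. The genes were chosen by name: 22 were listed (the cytosolic synthetases and the scaffold proteins AIMP1 and AIMP2), and 17 mitochondrial partners, whose symbols end in 2, were added, giving 39 genes. FARSA and FARSB encode the subunits of the cytosolic phenylalanyl enzyme and share FARS2 as partner, and EPRS1, which carries both the glutamyl and the prolyl enzyme, has EARS2 and PARS2. Of the 39 genes, 35 were matched to a probe on the array, with 42 probes in all, and 32 passed the detection filter and were tested, among 8968 genes tested overall. These 32 were 19 cytosolic and 13 mitochondrial genes. AIMP2 and YARS2 were among those not matched to a probe, and AIMP1, PARS2 and WARS2 had a probe that was detected on none of the 6 arrays.

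LNCaP is an androgen-responsive line derived from a lymph node metastasis of prostate cancer. Cells of this line received siRNA against TCTP or, as control, siRNA against luciferase (Luc), a firefly gene that these cells lack, each at 100 nM, and RNA was taken after 72 h. Each group was measured on 3 Illumina arrays, so all values are from transfected cells of 1 line and no untreated cells were included. The labels do not say whether the arrays of a group came from separate cultures, and p-values then measure only the spread between these samples, which may be technical.

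Synthetases fall into class I and class II, which have unrelated catalytic domains. The cytosolic enzymes serve translation on cytosolic ribosomes, the mitochondrial ones serve the ribosomes of that organelle, and GARS1 and KARS1 are known to encode both forms. Several cytosolic synthetases sit in a multisynthetase complex held together by AIMP1, AIMP2 and a further scaffold protein. When amino acids run short or the endoplasmic reticulum is stressed, kinases that phosphorylate eIF2 raise translation of the transcription factor ATF4, which binds amino acid response elements and induces many cytosolic synthetase genes together with amino acid transporters and biosynthetic enzymes. WARS1, the tryptophanyl enzyme, is in addition a classical interferon-gamma induced gene.

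The amino acid response element has the core TGATGNAA, which ATF4 binds with C/EBP proteins. RefSeq promoter sequences (GRCh38.p14, 250 bases before to 50 after the gene start) matched 32 of the 39 genes; those not matched included LARS1, VARS1, YARS1, AARS2 and VARS2. The core, searched on both strands, was in 7 of the 32 windows (21.9%) and in 3.67% of 27305 promoters. It was in 6 of 30 matched promoters of a list of ATF4 target genes. A letter match is a description of the sequence and not a binding site. Of the 7 genes, 6 had been tested on the arrays (YARS2 was not matched to a probe), and their segments are shown because they share the core while their array values differed. The core and 10 bases on either side, in the direction of the gene and with the core or its reverse complement in capitals, read:
NARS1: ctacgctctcTGATGCAAcgccggaatc
TARS1: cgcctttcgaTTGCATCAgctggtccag
AARS1: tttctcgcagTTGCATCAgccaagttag
IARS1: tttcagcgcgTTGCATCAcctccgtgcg
CARS1: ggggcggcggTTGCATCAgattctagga
MARS1: ccggttccggTTGCATCAgcgagggatt

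All 6 carried the same form of the core, on the gene's own strand in NARS1 and on the opposite strand in the other genes. The segments lie at chr18:57621805-57621832 (NARS1, minus strand), chr5:33440957-33440984 (TARS1, plus), chr16:70289676-70289703 (AARS1, minus), chr9:92293693-92293720 (IARS1, minus), chr11:3057408-3057435 (CARS1, minus) and chr12:57488054-57488081 (MARS1, plus). Counted from the annotated first base of the gene, the match began at 14 in NARS1, 2 in TARS1, -2 in CARS1, -4 in MARS1, -13 in IARS1 and -187 in AARS1, so that only the AARS1 match lay far from the start. Of these 6 genes, 1 was called lower and 5 were not called, with log2 changes from -0.59 in NARS1 to 0.28 in TARS1.

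The NARS1 promoter, the one of the single synthetase gene that passed the test, lies at chr18:57621787-57622086 on the minus strand, with the core in capitals:
NARS1: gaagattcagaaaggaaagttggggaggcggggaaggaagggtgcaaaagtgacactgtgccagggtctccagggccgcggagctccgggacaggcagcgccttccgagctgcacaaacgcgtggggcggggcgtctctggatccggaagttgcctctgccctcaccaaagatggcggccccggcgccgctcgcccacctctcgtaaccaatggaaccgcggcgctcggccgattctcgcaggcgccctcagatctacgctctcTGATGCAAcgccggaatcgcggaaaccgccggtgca

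Other elements were searched in the same way. An interferon response core, GAAANNGAA, was in 4 of the 32 windows (AIMP1, GARS1, IARS1 and EARS2). It was in 8.29% of all promoters and in 9 of 16 promoters of a list of interferon-inducible genes. This form had been shortened after a longer one matched EARS2 alone among these genes, so the 4 matches carry no weight as a count. The gamma-activated site TTCCNGGAA was in the window of WARS2 alone among these genes and in 1.22% of all promoters. None of these cores was in the WARS1 window, which says only that these letters are not in that stretch. HARS1 and HARS2 are transcribed from opposite strands of chromosome 5, and their windows, chr5:140691321-140691620 and chr5:140691205-140691504, overlap.

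Values are given as log2 of the quantile-normalized probe signal, and a change is the TCTP siRNA mean minus the Luc siRNA mean on that scale. Background was not subtracted, which compresses the changes of dim probes. A gene was called when its adjusted p was below 0.05 in limma with Benjamini-Hochberg adjustment over all 8968 genes. Of these genes, 136 (1.52%) were called lower and 93 (1.04%) higher. The text of the study describes interferon-induced genes as increased by TCTP knockdown. It also reports qPCR of several of them, IFIT1, IFIT3 and MX1 included, under a legend of increased expression. By the sample labels the interferon-induced genes were lower on the TCTP siRNA arrays, the opposite direction, and the direction of the labels is used throughout. The cause of this difference was not tested. On the dimmer TPT1 probe, the TCTP arrays read 12.25, 12.47 and 12.39 and the Luc arrays 12.95, 13.17 and 13.23. That is a change of -0.75 (SE 0.11, limma adjusted p = 0.00331 over probes), with the TCTP group at 59.6% of the Luc level and no overlap between the groups. On the brighter TPT1 probe the change was -0.19 (limma adjusted p = 0.471 over probes), at 87.7% of the Luc level, and the groups overlapped. By the rule used here the brightest probe stands for a gene, and that probe did not pass the test. The TPT1 probes thus disagreed on the extent of the knockdown. The paper reports significant knockdown of mRNA and protein without showing those data. Detected probes numbered 12828 to 13741 per array and raw median intensities ran from 35.6 to 43.4. All 6 luminal prostate markers that had a probe (KLK2, KLK3, KRT8, KRT18, FOLH1 and TMPRSS2) were detected. Their summed log2 level was 13.2 to 13.3 in the TCTP group and 13.4 to 13.5, without overlap, in the Luc group. None was called, and the changes were -0.42 in TMPRSS2, -0.36 in KLK2, -0.03 in FOLH1, -0.01 in KRT8, 0.02 in KLK3 and 0.05 in KRT18. The part of these markers in the results was not tested. No array detected any of the 2 basal, 4 fibroblast or 4 leukocyte markers with a probe, and of 3 endothelial markers only VWF was detected.

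Among the 32 synthetase genes, 1 was called lower (NARS1) and none higher by limma, where 1.52% of all genes were called lower and 1.04% higher. A single call among 32 genes is too few to set the family apart from that background. At an unadjusted p below 0.05, 2 were lower (NARS1 and SARS2) and 1 was higher (MARS2), where 8.05% of all genes were lower and 7.59% higher. In 3 genes (NARS1, NARS2 and SARS2) every TCTP array lay below every Luc array, and in none did every TCTP array lie above, against 10.8% and 10.4% of all genes. The 3 genes make up 9.38% of the 32, near the background. The change was negative in 19 genes and positive in 13, with a median of -0.025, beside 0.0011 over all genes. The 95% interval of the change stayed within 0.5 log2 units (1.41-fold) in either direction for 27 of the 32 genes (84.4%, against 83.6% of all genes); the exceptions were NARS1, TARS1, CARS2, HARS2 and SARS2. It stayed within 1 log2 unit (2-fold) for all 32.

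**Figure D1:**
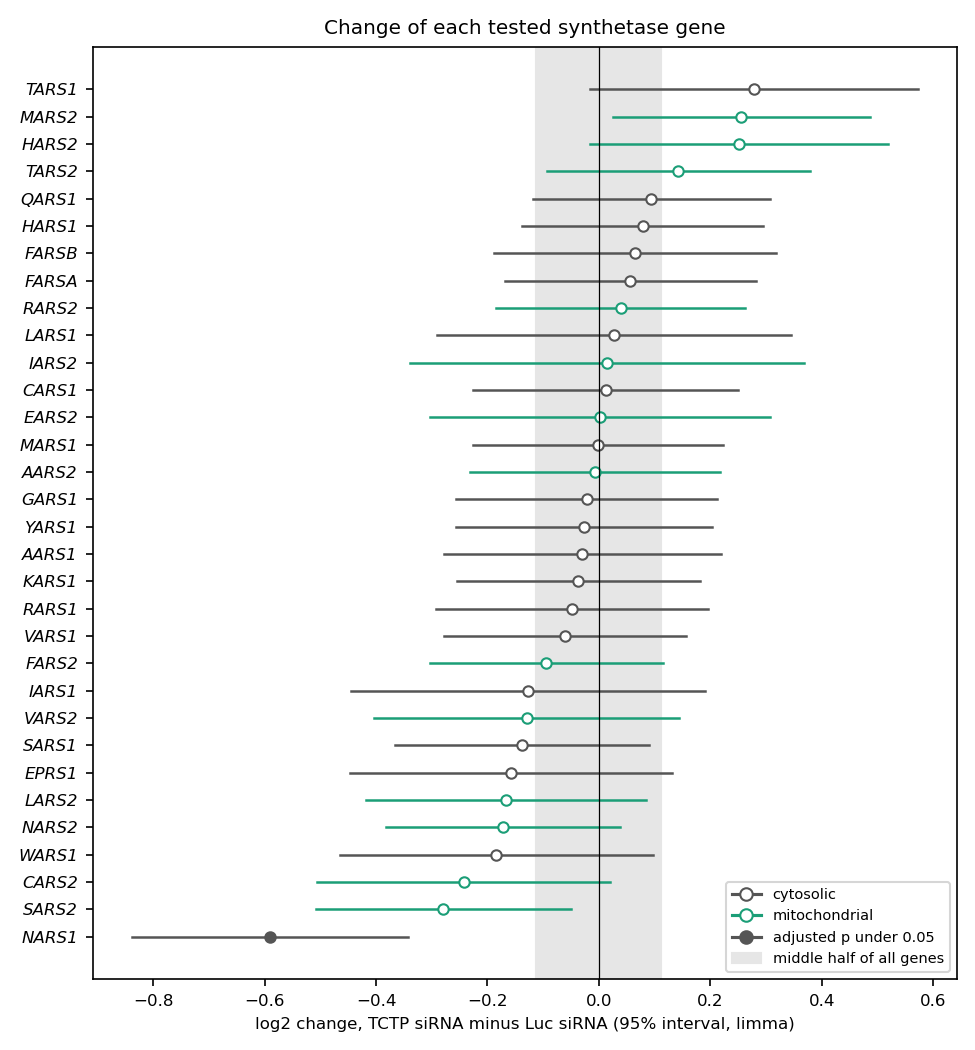
Log2 change (TCTP siRNA minus Luc siRNA, horizontal axis) of the 32 tested synthetase genes, ordered by change; points are limma estimates from 3 arrays per group, lines are 95% intervals, and the grey band spans the 25th to 75th percentile of all 8968 genes. NARS1, at -0.59, is the only filled point (adjusted p below 0.05), and 27 of the 32 intervals lie within 0.5 on either side of 0.

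NARS1 encodes the cytosolic asparaginyl enzyme, a class II synthetase outside the multisynthetase complex. Its signal was 11.55, 11.32 and 11.72 on the TCTP arrays and 12.17, 12.06 and 12.13 on the Luc arrays. The Luc arrays lay close together and all above the TCTP arrays, which were more spread. The means were 11.53 ± 0.20 and 12.12 ± 0.05 (SD, n = 3 each), a change of -0.59 (SE 0.11, 95% interval -0.84 to -0.34, limma adjusted p = 0.0152), which puts the TCTP group at 66.4% of the Luc level. By p-value it ranked 108 of the 8968 genes. Only 1 probe was matched to NARS1, so no other probe could be set beside it. The raw intensities, before normalization, were 2919, 2304 and 3696 against 4932, 4334 and 4205, again without overlap.

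Set against the mean of the other 18 cytosolic synthetases on the same array, NARS1 stood 1.10, 1.04 and 1.33 above it on the TCTP arrays and 1.69, 1.74 and 1.77 above it on the Luc arrays. Measured this way the fall was -0.58. It had to stay near -0.59, because the mean of the other 18 genes hardly differed between the groups. The mean of those 18 genes was 10.45, 10.28 and 10.39 on the TCTP arrays and 10.48, 10.33 and 10.36 on the Luc arrays, a difference of -0.012. Because NARS1 was singled out by its value, no test was applied to this relative measure. The call itself was lost when any single Luc array or TCTP array 1 was left out (adjusted p 0.0577 to 0.0766), and when arrays were scaled to a common median instead (-0.52, adjusted p = 0.208).

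**Figure D2:**
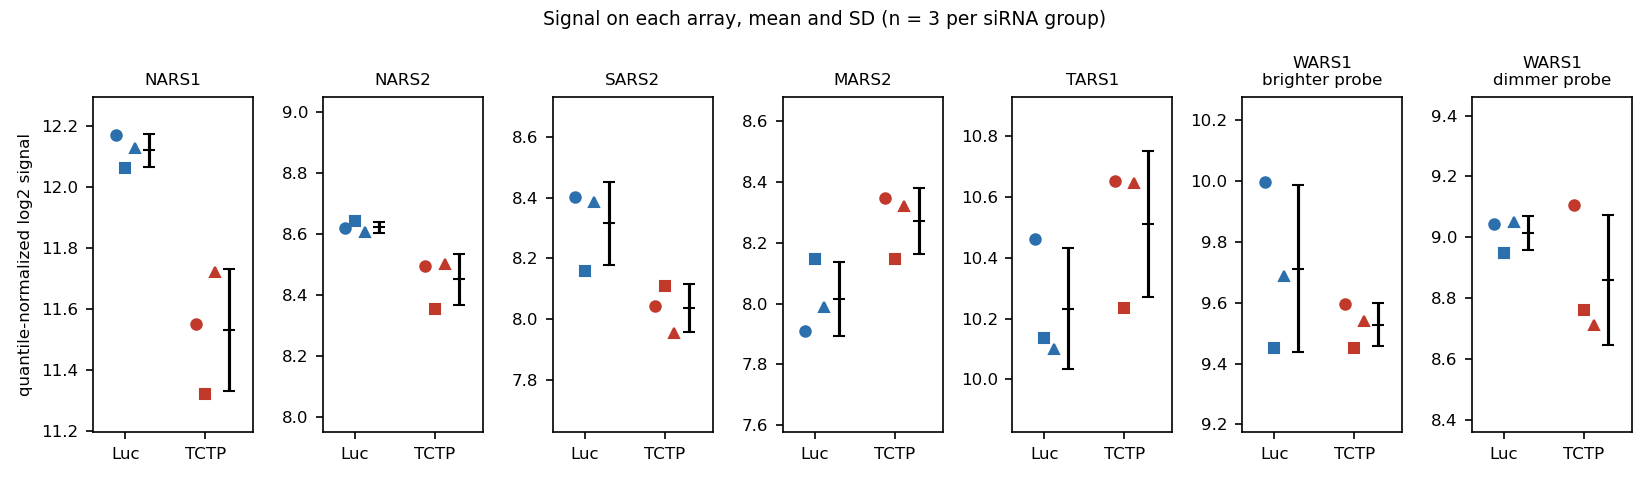
Quantile-normalized log2 signal (vertical axes, each spanning 1.1 units) on each array for NARS1, NARS2, SARS2, MARS2, TARS1 and both WARS1 probes; blue points are the Luc siRNA arrays, red points the TCTP siRNA arrays (circle, square and triangle for array 1, 2 and 3 of a group), and black bars are the mean and SD. The groups do not overlap for NARS1, NARS2 and SARS2 and overlap in the other panels.

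WARS1 was represented by a pair of detected probes. The brighter one read 9.59, 9.45 and 9.54 on the TCTP arrays and 10.00, 9.45 and 9.69 on the Luc arrays. The lowest Luc array was level with the lowest TCTP array, so the groups overlapped. The change was -0.18 (SE 0.13, 95% interval -0.46 to 0.10, limma adjusted p = 0.542). The dimmer probe read 9.11, 8.76 and 8.71 against 9.04, 8.95 and 9.05, a change of -0.15 (adjusted p = 0.609 over probes), with TCTP array 1 above all Luc arrays. The interval of the brighter probe leaves room for a fall of up to 0.46 log2 units, or for no change.

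Of a list of 20 interferon-inducible genes, 15 were tested, of which 12 were called lower and none higher. Among all genes, 1.52% were called lower and 1.04% higher. The median change of the 15 was -1.34, or -0.62 with the 3 genes below detection in the TCTP group set to their bounds. Those 3 passed the filter through the Luc arrays alone, and IFIT1 and GBP2 were detected on 2 TCTP arrays. With detection required on all 6 arrays, 6 genes of the list were called lower and the median was -0.487. The 12 were the antiviral IFIT1 (-3.68, adjusted p = 1.6e-09), IFIT2 (-2.86), IFI6 (-2.49), the ubiquitin-like ISG15 (-1.59), its conjugating enzyme UBE2L6 (-0.50), IRF9 (-1.55), a subunit of the interferon-activated factor ISGF3, the GTPases GBP2 (-0.62) and MX1 (-0.43), PARP9 (-0.41), IFIT3, the chemokine CXCL10 and the RNA sensor OAS1. The last 3 were detected on no TCTP array and were at least 3.40-fold, 1.76-fold and 1.43-fold lower, where the TCTP level was set, on each array, to the dimmest detected signal or to the probe's own if that was higher. The other 3 genes tested were B2M (-0.47, adjusted p = 0.0826), IRF1 (-0.12, adjusted p = 0.679) and TAP1 (0.05, adjusted p = 0.86). Of the 12 called falls, 10 had an estimate below the lower bound of the WARS1 interval. That count sets estimates against an interval. The intervals of GBP2 (-0.87 to -0.37) and UBE2L6 (-0.74 to -0.27), which are among the 10, overlapped that of WARS1. Of the genes not called, IRF1 and TAP1 had estimates inside the WARS1 interval and B2M just below it.

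TARS1, the threonyl enzyme, had the highest estimate of the 32 genes. It read 10.65, 10.23 and 10.65 on the TCTP arrays and 10.46, 10.13 and 10.10 on the Luc arrays. TCTP array 2 and Luc array 1 lay nearer to the other group than to their own, and the change of 0.28 (SE 0.14, limma adjusted p = 0.35) did not pass the test. For EPRS1 the estimate was -0.16 (adjusted p = 0.619) and for the seryl enzyme SARS1 -0.14 (adjusted p = 0.578). IARS1, the isoleucyl enzyme, was at -0.13, with TCTP array 2 at 9.72 and the other 5 arrays between 10.13 and 10.36. The other cytosolic genes had estimates between -0.06 (VARS1) and 0.09 (QARS1), the lowest adjusted p among them being 0.696 (QARS1). They include AARS1 (-0.03), the glycyl enzyme GARS1 (-0.02), the lysyl enzyme KARS1 (-0.04), LARS1 (0.03), RARS1 (-0.05), YARS1 (-0.03), HARS1 (0.08), CARS1 (0.01) and MARS1 (-0.0024).

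FARSA (0.06) and FARSB (0.06) were not called. A second FARSB probe was detected on no array, while the tested one was detected on all 6, so the probes of this gene disagreed. Further probes of IARS1 and VARS1 likewise failed detection on most or all arrays and were not used.

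The median change was -0.027 over the 19 tested cytosolic genes, 12 of which were negative. Of the members of the multisynthetase complex, 7 were tested, none was called, 5 were negative and the median was -0.037. Of its scaffold proteins, AIMP1 was not detected and AIMP2 was not matched to a probe, and the further one was not among the genes chosen. EPRS1, which carries 2 enzymes, was in neither class list. All 9 genes listed as class I were tested without a call, with a median of -0.027. Of 9 class II genes tested, 1 was called (NARS1), with a median of -0.022. The 12 synthetases on a list of genes linked to ATF4 also held 1 call (NARS1); 9 of the 12 were negative and the median was -0.029. The 7 other cytosolic genes had a median of 0.06 and no call.

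Array by array, the synthetase genes moved partly together within a group. TCTP array 2 was the lowest of its group for 20 of the 32 genes, where it was the lowest for 39.1% of all genes, and TCTP array 1 was the highest for 17 (28.9% of all genes). In the Luc group, array 1 was the highest for 20 genes (41.2% of all genes). The mean over the 19 cytosolic genes was 10.51, 10.34 and 10.46 on the TCTP arrays and 10.57, 10.42 and 10.45 on the Luc arrays, so that the arrays within a group differed by more than the group means did (-0.043). The cause of these shared differences was not tested.

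**Figure D3:**
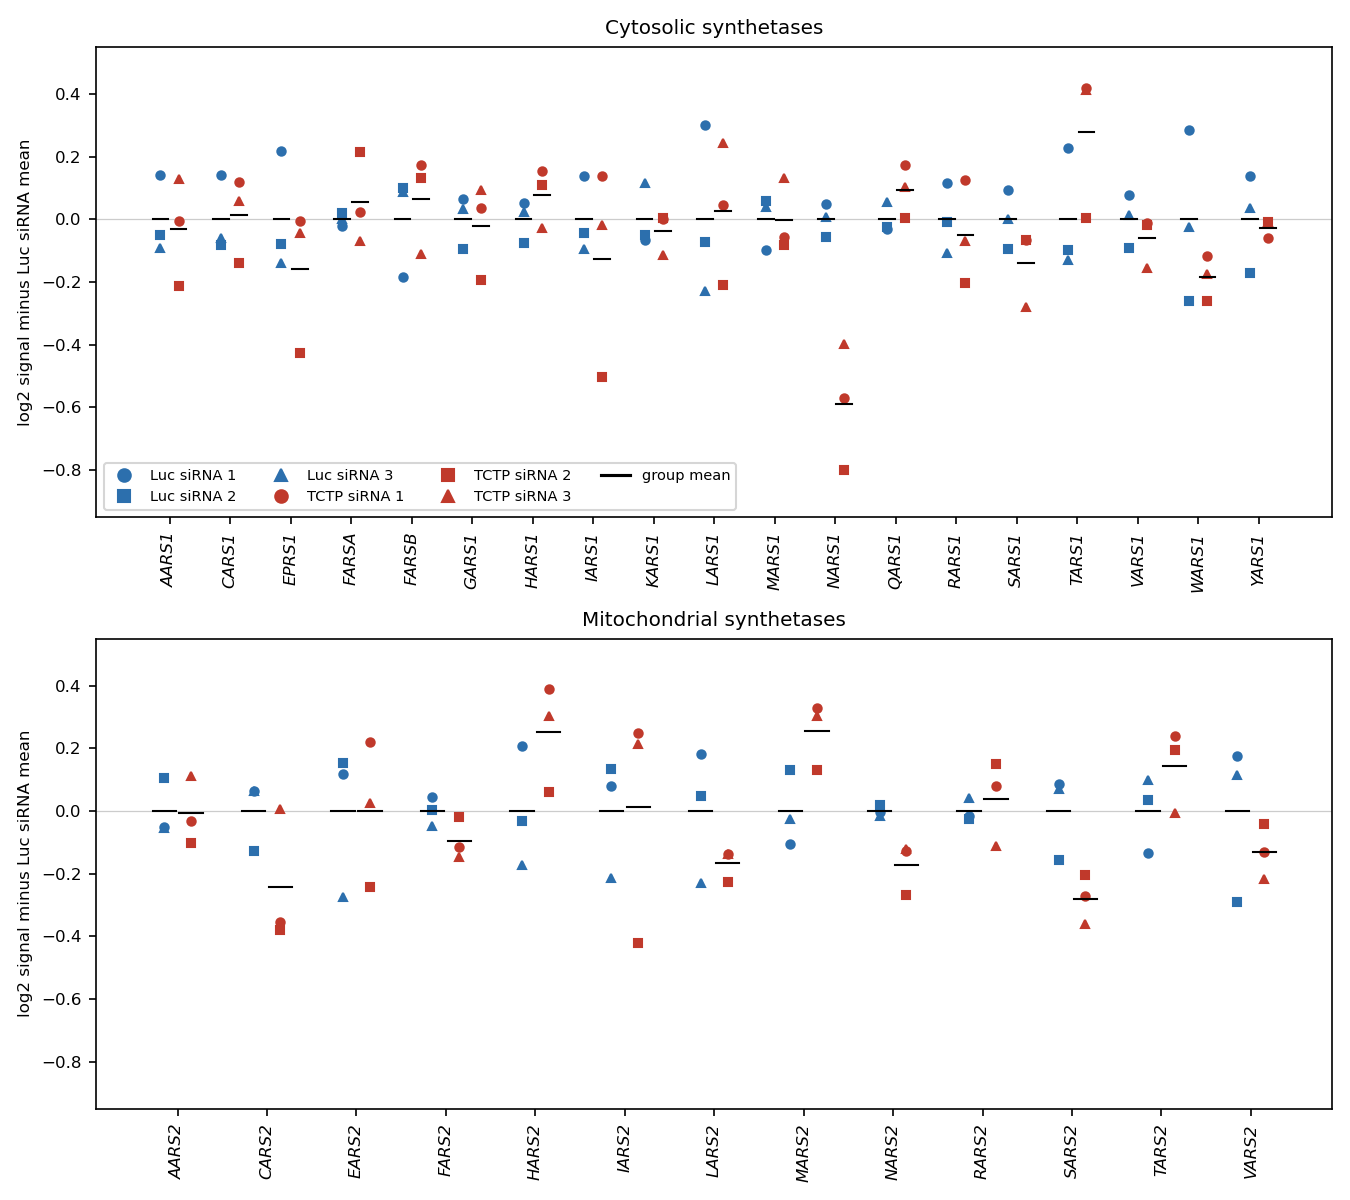
Log2 signal on each array minus the gene's Luc siRNA mean (vertical axis) for the 19 cytosolic (top) and 13 mitochondrial (bottom) synthetase genes tested; blue points are Luc and red points TCTP siRNA arrays, and black dashes are group means. Only NARS1, NARS2 and SARS2 have all TCTP points below all Luc points, and TCTP array 2 (red squares) is the lowest of its group for 20 of the 32 genes.

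None of the 13 tested mitochondrial genes was called by limma (1 lower and 1 higher at an unadjusted p below 0.05); 7 were negative and 6 positive, with a median of -0.0068. SARS2, the mitochondrial seryl enzyme, read 8.04, 8.11 and 7.95 on the TCTP arrays and 8.40, 8.16 and 8.39 on the Luc arrays. The groups did not overlap, but Luc array 2 came within 0.05 of the highest TCTP array. Its change was -0.28 (SE 0.11, limma adjusted p = 0.207).

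MARS2, the mitochondrial methionyl enzyme, read 8.35, 8.15 and 8.32 on the TCTP arrays and 7.91, 8.15 and 7.99 on the Luc arrays. TCTP array 2 and Luc array 2 were level, and the change was 0.26 (SE 0.11, limma adjusted p = 0.259). HARS2, whose promoter window overlaps that of HARS1, was at 0.25 (adjusted p = 0.352), and CARS2 at -0.24 (adjusted p = 0.358). The groups overlapped for HARS2 and CARS2 alike.

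NARS2 is the mitochondrial partner of NARS1. It read 8.50, 8.35 and 8.50 on the TCTP arrays and 8.62, 8.64 and 8.61 on the Luc arrays. All TCTP arrays lay below all Luc arrays, as for NARS1, but the change of -0.17 (SE 0.10, 95% interval -0.38 to 0.04, limma adjusted p = 0.429) did not pass the test. Over the 14 pairs of a cytosolic and a mitochondrial gene in which both were tested, the estimates had the same sign in 6 and opposite signs in 8. The remaining mitochondrial genes lay between -0.17 (LARS2) and 0.14 (TARS2), with AARS2, EARS2 and IARS2 at -0.0068, 0.0015 and 0.01.

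Genes around the synthetases were read beside them. Of 15 accessory genes of tRNA charging and handling, 12 were tested and none was called by limma (none lower and 2 higher at an unadjusted p below 0.05), with a median of -0.023. The 2 were LRRC47 (0.27, adjusted p = 0.207) and MTFMT (0.26, adjusted p = 0.221), the enzyme that formylates the mitochondrial initiator methionyl-tRNA. MTFMT read 8.30, 8.29 and 8.09 on the TCTP arrays and 7.89, 7.96 and 8.03 on the Luc arrays, without overlap. XPOT, which exports tRNA from the nucleus, was at -0.17 and TRNT1, which adds the CCA end, at -0.21, neither called.

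None of the eIF2 kinases, EIF2S1 (the phosphorylated subunit of eIF2) or ATF4 itself was called among 6 genes tested (1 lower at an unadjusted p below 0.05). EIF2AK2, the double-stranded RNA sensor PKR, which is also interferon-inducible, had the smallest p (-0.30, adjusted p = 0.141). ATF4 was at -0.09 (adjusted p = 0.742) and EIF2AK4, the GCN2 kinase that responds to uncharged tRNA, at -0.03 (adjusted p = 0.924).

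Of 38 listed ATF4 target genes other than synthetases, 33 were tested and none was called by limma, while 4 were lower and 1 higher at an unadjusted p below 0.05. The estimates were negative in 27 of the 33, with a median of -0.13, against 4454 of all 8968 genes. SLC7A5, the large neutral amino acid transporter, read 7.31, 7.11 and 7.04 on the TCTP arrays and 7.50, 7.36 and 7.59 on the Luc arrays (-0.33, adjusted p = 0.148). The glycine transporter SLC6A9 was at -0.33 (adjusted p = 0.15), the pseudokinase TRIB3 at -0.30 (adjusted p = 0.191) and KLHL24 at 0.31 (adjusted p = 0.232). ASNS, asparagine synthetase, which makes the amino acid that NARS1 loads, read 11.79, 11.82 and 11.73 on the TCTP arrays and 12.18, 12.01 and 11.96 on the Luc arrays. No TCTP array reached the lowest Luc array, and the change was -0.27 (adjusted p = 0.203). This separation was not particular to ASNS. Every TCTP array lay below every Luc array in 8 of the 33 genes and above in 2, against 10.8% and 10.4% of all genes. The median deviation of the 33 genes from their Luc means was -0.047, -0.167 and -0.159 on the TCTP arrays, nearer to 0 on array 1 than on the others. On the Luc arrays it was 0.045, -0.025 and -0.016, so TCTP array 1 lay close to the lower Luc arrays.

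**Figure D4:**
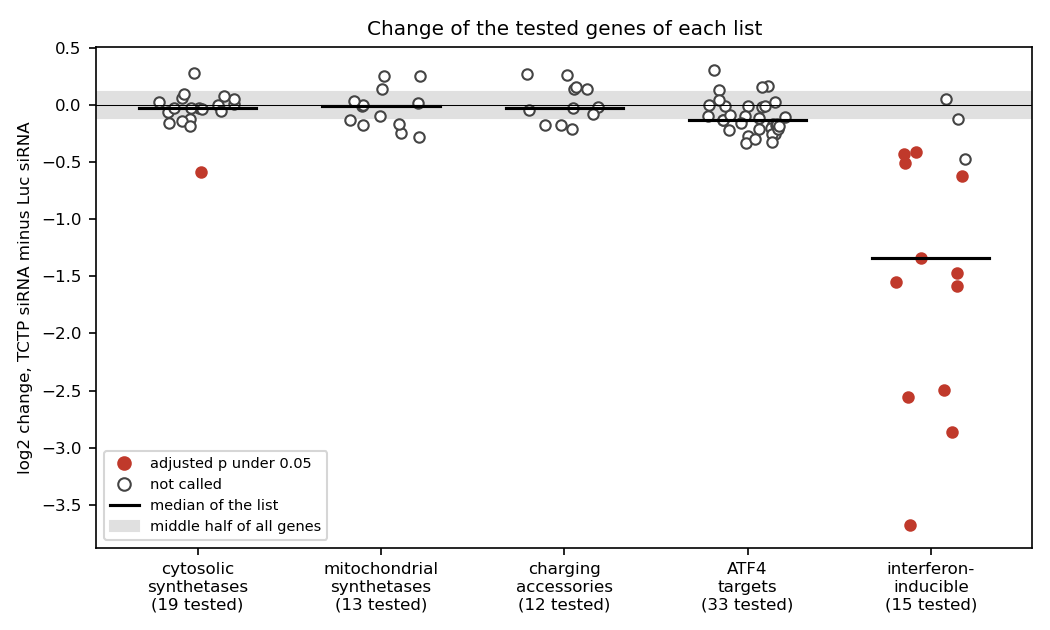
Log2 change (TCTP siRNA minus Luc siRNA, vertical axis) of every tested gene in the cytosolic and mitochondrial synthetase lists, the charging accessories, the ATF4 targets and the interferon-inducible genes; filled points have an adjusted p below 0.05, black lines are list medians, and the grey band spans the 25th to 75th percentile of all 8968 genes. NARS1 is the only filled point outside the interferon-inducible list, which holds 12, and the list medians are -0.027, -0.0068, -0.023, -0.13 and -1.34; for IFIT3, CXCL10 and OAS1 the fitted change is plotted.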

How the data were processed

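Total RNA (Trizol) of siRNA-transfected LNCaP cells was labelled as biotin cRNA and hybridised to Illumina HumanWG-6 v3 arrays, which the authors read in BeadStudio, whose version is not known here. The deposited table holds raw probe intensity values and a detection p-value per array; the authors' own quantile-normalized intensity values served as an alternative. Here intensities were quantile-normalized without background subtraction and log2-transformed, probes with a detection p below 0.01 on at least 3 of 6 arrays were kept (13484 of 48803), and the brightest kept probe stood for each gene. Symbols came from the platform annotation, updated to RefSeq names; 27578 probes had 1 symbol, 13 several and 21212 none. Groups were compared with limma 3.58.1 (R 4.3.3; lmFit, eBayes) and Benjamini-Hochberg adjustment over 8968 genes, after a check on simulated data. Only 3 arrays per group limit the precision. Some genes of the family are not reported here; per-array values are given for those called or with an unadjusted p below 0.05, for WARS1 and for a few genes chosen after their values were seen (TARS1, NARS2, ASNS), and from the other lists the called genes or those with the smallest p are named, with some further genes by role. Members and lists were chosen with earlier results of these data known. Other background corrections, normalizations, detection filters, probe rules and left-out arrays were tried. Promoter matches were searched with Python 3.11.15. The promoter search was added after the data were seen, and the interferon response core was shortened by its last base after a first search with the longer form, which had matched EARS2 alone among these genes.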

Additional observations from a re-analysis of the deposited data

Results flagged for a closer look

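A second MARS2 probe, left out because it was not detected on enough arrays, was detected on 1 TCTP siRNA array and on no Luc siRNA array. Its highest log2 signal was 6.25 in the TCTP group and 5.90 in the Luc group. It read 5.90, 5.62 and 6.25 on the TCTP arrays and 5.90, 5.67 and 5.84 on the Luc arrays, so only TCTP array 3 stood above the control arrays. The rule that marked it looked only for untested probes detected on more TCTP than Luc arrays, and not for the reverse.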

How the results depend on the processing

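The count of synthetase genes called lower was 1, and it became 0 with median scaling and with an adjusted p threshold of 0.01; no synthetase gene was called higher in any setting. NARS1 was at -0.52 with median scaling (adjusted p = 0.208) and at -0.59 at the threshold of 0.01 (adjusted p = 0.0152). Leaving out 1 array at a time gave 0 to 1 genes called lower and a NARS1 change of -0.69 to -0.48, with the call kept only without TCTP array 2 or 3. The mitochondrial median then ran from -0.10 (without TCTP array 1) to 0.025 (without Luc array 2), so its sign is not settled, and the cytosolic median from -0.043 (without TCTP array 1) or -0.055 (without Luc array 2) to 0.035 (without TCTP array 2). The cause was not tested. Of 527 values of the other 31 synthetase genes over 17 settings, none was called, and 526 stayed within the spread between arrays. That count of 526 was largely fixed in advance and does not measure robustness. Changes of filter, test or probe rule left most estimates as they were, and leaving out 1 of 3 arrays can hardly move a mean beyond that spread. QARS1 moved to 0.17 with median scaling, which shifted the median of all genes to 0.034. In some setting 15 genes changed sign, and the lowest limma adjusted p was 0.0911 (TARS1 without TCTP array 2). A replicate block kept NARS1 at -0.59 and the count at 1, while the calls among all genes went from 136 lower and 93 higher to 73 and 45. Same-numbered arrays did not deviate together (r = -0.0711, -0.0584 and -0.396). Some arrays of different number did: r was 0.489 for TCTP array 2 with Luc array 3 and 0.438 for TCTP array 3 with Luc array 1. For TCTP array 1 with Luc array 2 it was 0.253, and the remaining pairs ran from -0.359 to -0.136. The replicate block used the same-numbered pairing only. With deviations taken from the mean of only 3 arrays per group, these correlations cannot decide whether the samples are paired, by number or in another order. Overall counts were 35 and 17 with median scaling and 56 and 33 at the threshold of 0.01. Leaving out 1 array gave 53 to 170 lower and 30 to 143 higher. The number of interferon-inducible genes called lower ranged from 6 (detection required on all 6 arrays) to 13 (no filter). Unsubtracted background limit what dim probes can show.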
